A study of Danio rerio with 2 samples.

Results

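The genes sox7, sox18, fli1a, fli1b, erg, etv2 and ets1 code for the transcription factors of 2 families, SoxF and ETS, that are best known for building and maintaining blood vessels. They were chosen by name, and all 7 were found among the 27771 genes of the deposited matrices and among the 17822 genes of the authors' table of cluster means. Their Ensembl identifiers in the files are ENSDARG00000030125 (sox7), ENSDARG00000058598 (sox18), ENSDARG00000054632 (fli1a), ENSDARG00000040080 (fli1b), ENSDARG00000077304 (erg), ENSDARG00000053868 (etv2) and ENSDARG00000024431 (ets1). Zebrafish embryos were taken at 27 hours post fertilization, mCherry-positive cells of their dissociated trunks were sorted, and their transcripts were counted cell by cell with droplet-based 3′ sequencing. Every fish carried Tg(kdrl:hras-mCherry)s896, in which the promoter of the endothelial VEGF receptor gene kdrl drives the sorted reporter, and Tg(5xUAS:eGFP)nkuasgfp1a. The wildtype library came from fish that also carried Tg(miR-223:KalTA4)ya362. The mutant library came from fish with the miR-223(ya303) mutation, which carried Tg(miR-223:KalTA4)ya363, another allele of the same activator line. There was 1 library per genotype, so no test across samples was possible, and genotype cannot be told apart from clutch, sort or library preparation. The mutated microRNA itself was not analysed here, and the genotypes were taken from the labels.

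ETS factors share a winged-helix domain that binds DNA around a GGAA core, and SoxF factors bind through an HMG box. Many endothelial enhancers hold binding sites for both families. Etv2 (also called Etsrp in zebrafish) acts early in the programme that turns mesoderm into endothelial precursors. Fli1, Erg and Ets1 act with it and later maintain vessel identity. Sox7 and Sox18 act redundantly in zebrafish, and fish that lack both form arteriovenous shunts. fli1a and fli1b are paralogs, and how reads that match both were counted is not given in the sources used here.

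The wildtype library held 8702 cell barcodes with 92241952 UMIs (unique molecular identifiers, 1 per captured transcript), and the mutant library held 9176 barcodes with 125149083 UMIs. After filtering, 7481 wildtype and 8240 mutant cells remained, of which 5279 (70.6%) and 4491 (54.5%) were endothelial-like, with medians of 6867 and 7044 UMIs per cell. The authors' table rests on 6227 wildtype and 6125 mutant cells in 15 clusters, and its endothelial-like clusters hold 5006 and 4128 of them. All 10 endothelial markers were raised in each of those clusters. The libraries shared 98 barcodes, and 75 of these were among the cells kept. Leaving those cells out moved no member's mutant-to-wildtype ratio by more than its counting error. Levels below are CPM, the UMIs of a gene per 1000000 UMIs of a group of cells, with exact Poisson 95% intervals. Ratios have exact conditional 95% intervals, shares have exact Clopper-Pearson intervals, and differences of shares have Newcombe intervals. All intervals cover counting error only. They leave out variation between cells, fish and library preparations and are therefore too narrow for a comparison of genotypes.

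The members fell into a plentiful and a scarce group. Over all barcodes of the wildtype and mutant libraries, etv2 was counted 31693 and 24926 times, fli1a 19084 and 18312 times, sox7 15473 and 12943 times, and fli1b 9457 and 9357 times. The other 3 were near the limit of what these libraries could show. sox18 had 133 and 154 UMIs, ets1 had 117 and 185, and erg had 48 and 68. Only the plentiful 4 reached 5 CPM, the minimum set for counting folds, so statements on sox18, erg and ets1 rest on single UMIs in few cells. Whether the 3′ ends of these 3 genes were fully covered by the annotation used was not tested.

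Etv2, Sox7 and both fli1 paralogs marked the endothelial-like clusters in both libraries. In the authors' table, etv2 had 742 CPM in the wildtype endothelial-like clusters and 31.3 CPM in the other wildtype clusters, a ratio of 23.7 (21.2 to 26.6). In the mutant library its levels were 682 and 25.5 CPM, a ratio of 26.7 (24.3 to 29.5). fli1b was 22.9-fold (18.4 to 28.9) and 18.2-fold (15.8 to 21) higher in endothelial-like clusters. sox7 was 11.3-fold (10.0 to 12.7) and 18.7-fold (16.7 to 21.1) higher. fli1a was the least restricted of the 4, at 6.51-fold (6.01 to 7.06) and 10.0-fold (9.32 to 10.8). Each of these 4 thus lay at least 4-fold higher in endothelial-like clusters in both libraries, as did 8.56% of the 7975 genes tested. In all kept cells of the matrices, which include deeper cells than that table, the wildtype and mutant ratios were higher for etv2 (46.2 and 56.4), sox7 (38.9 and 64.5) and fli1a (15.2 and 17.3), while those of fli1b were 18.1 and 21.1. The authors' clusters were built from the expression of these cells, so this is a description of where the genes were found, not a test.

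The scarce members did not share this pattern evenly. sox18 had 63 wildtype UMIs in endothelial-like and 17 in other clusters, and 54 and 34 in the mutant library. Relative to all UMIs, that was 1.09-fold (0.633 to 2.0) and 0.972-fold (0.622 to 1.54) of the level in other cells, and both intervals included 1. In the matrices sox18 had 1.79 CPM in endothelial-like and 1.12 CPM in other wildtype cells, a ratio of 1.6 (1.11 to 2.31), and 1.85 and 0.963 CPM in mutant cells, a ratio of 1.92 (1.36 to 2.71). ets1 was higher in endothelial-like clusters, at 5.14-fold (2.12 to 16.2) in wildtype and 5.90-fold (3.17 to 12.2) in the mutant library. Its count there was 87 and 106 UMIs, against 5 and 11 elsewhere. erg was counted 29 and 43 times in endothelial-like clusters, against 1 and 4 times elsewhere. The single wildtype UMI gives a ratio of 8.57 with an interval of 1.42 to 350, and the mutant ratio was 6.58 (2.39 to 25.2). In the matrices, where more cells were kept, 96.8% and 96.1% of sox7 UMIs and 97.3% and 95.6% of etv2 UMIs lay in endothelial-like cells. For sox18 the shares were 55.1% and 42.4%, where endothelial-like cells held 43.4% and 27.6% of all UMIs.

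The 4 plentiful genes did not peak in the same endothelial-like clusters. In wildtype cells etv2 was highest in cluster 6, whose leading genes include apoc1, capn8 and the aquaporin gene aqp8a.1, with 1156 CPM, or 9.01 UMIs per cell. Next came cluster 2, a venous-like cluster led by rnaset2 and gchfr, with 962 CPM. The venous-like clusters 0 and 5 and the arterial-like cluster 3 followed at 661, 605 and 643 CPM, and the neighbours among these 3 had overlapping intervals. Cluster 1, led by gch2, pfn2 and tmsb4x, was lowest at 394 CPM. In mutant cells cluster 2 had 1332 CPM but only 31 cells, and the order below it was cluster 6 (859), cluster 0 (710), cluster 3 (672), cluster 5 (570) and cluster 1 (415), with intervals that did not overlap between neighbours. Cluster 6 thus exceeded arterial-like cluster 3 and venous-like clusters 0 and 5 in each library.

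sox7 also peaked in wildtype cluster 6, with 688 CPM, followed by arterial-like cluster 3 with 479 CPM and cluster 2 with 369 CPM. In the mutant library clusters 3 and 6 were level, at 466 and 464 CPM, below the 740 CPM of the 31 cells in cluster 2. Cluster 1 was again lowest among endothelial-like clusters, at 151 and 164 CPM. fli1a, the gene whose regulatory region drives widely used vessel reporter lines, had its highest levels in cluster 3 (540 and 547 CPM) and cluster 6 (513 CPM in each library), and these 2 clusters had overlapping intervals. Its lowest endothelial-like level was in cluster 5, at 303 and 349 CPM. The range of fli1a across endothelial-like clusters was thus smaller than that of sox7 or etv2. fli1b differed from its paralog. It was highest in cluster 2 of the wildtype library (275 CPM) and cluster 0 of the mutant library (287 CPM), both venous-like, and lowest in cluster 1 (84.8 and 107 CPM).

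**Figure D1:**
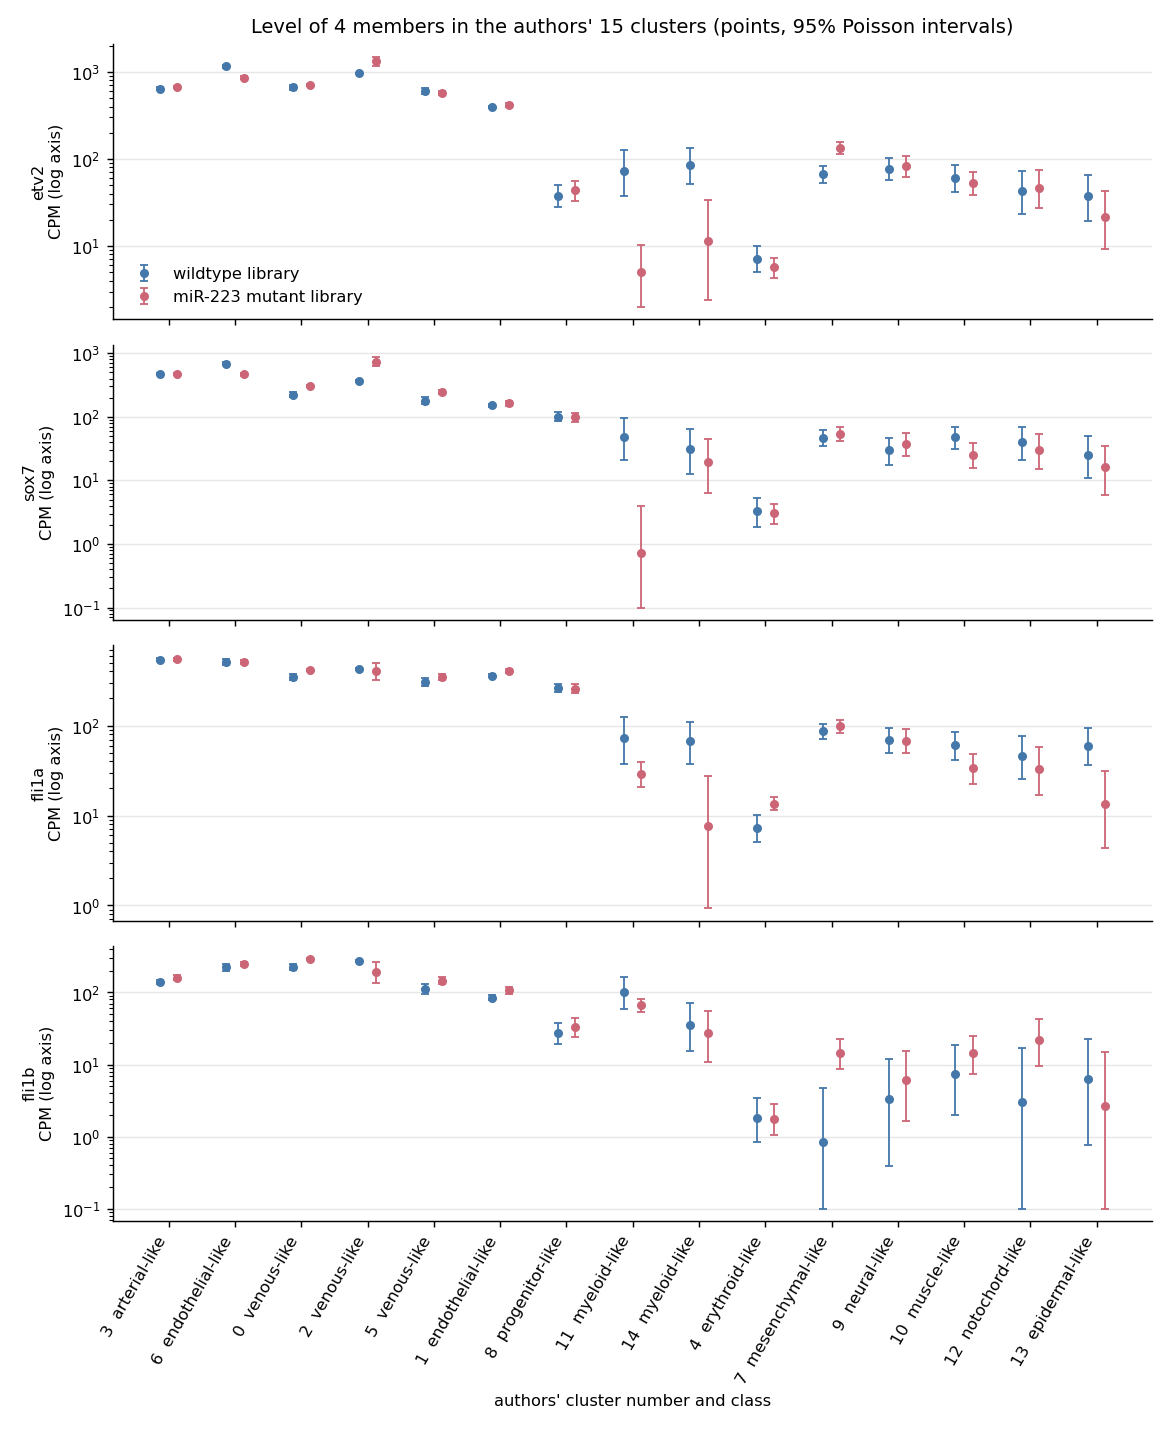
Level of etv2, sox7, fli1a and fli1b in each of the authors' 15 clusters, in CPM on a logarithmic axis, with wildtype in blue and mutant in red. Points are levels over a whole cluster and bars are exact 95% Poisson intervals, whose lower ends are not drawn below 0.1 CPM. All 4 genes are high in the 6 endothelial-like clusters at the left, fli1a stays high in progenitor-like cluster 8 (262 and 258 CPM), and fli1b stays above the other non-endothelial clusters in myeloid-like cluster 11 (102 and 66.7 CPM).

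Arterial-like and venous-like cells separated the paralogs. In the authors' clusters fli1b had 141 CPM in wildtype arterial-like cells and 257 CPM in wildtype venous-like cells, a ratio of 0.550 (0.511 to 0.591). In the mutant library the levels were 161 and 265 CPM, a ratio of 0.607 (0.563 to 0.653). fli1a went the other way, with ratios of 1.33 (1.28 to 1.39) and 1.35 (1.3 to 1.42). sox7 was likewise higher in arterial-like cells, at 1.42-fold (1.36 to 1.48) and 1.55-fold (1.47 to 1.62). Of the 4 genes, fli1b was at least 1.5-fold lower in arterial-like cells in both libraries, as were 15% of the 6921 genes tested. None was at least 1.5-fold higher in both, against 13.6% of those genes.

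The same ratios were taken in classes rebuilt from the matrices, where the 7 members and the other ETS and SOX genes were kept out of the genes that formed the clusters. fli1b was again lower in arterial-like cells, at 0.570 (0.541 to 0.600) and 0.578 (0.546 to 0.612), past 1.5-fold in both libraries as were 15.1% of 6906 genes. sox7 was 1.41-fold (1.36 to 1.45) and 1.33-fold (1.28 to 1.38) higher, and fli1a 1.3-fold (1.26 to 1.34) and 1.29-fold (1.25 to 1.33) higher. etv2 was lower in arterial-like cells by a ratio that varied with the clusters used. It was 0.715 (0.691 to 0.740) in wildtype and 0.963 (0.927 to 1.0) in mutant cells of the authors' clusters, and 0.786 (0.766 to 0.806) and 0.838 (0.813 to 0.863) in the rebuilt classes. Clusters 1 and 6 of the authors' table took neither name and entered neither side of its ratios. A rebuilt cluster led by apoc1 (103 wildtype and 1016 mutant cells), by contrast, entered the venous-like side. The authors' cluster 5 also entered that side on a weak name. Its venous markers lay a mean log2 of 0.13 above all endothelial-like clusters, against 0.40 in cluster 0 and 0.34 in cluster 2. erg, ets1 and sox18 had intervals that included 1 in both libraries and both sets of clusters.

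**Figure D2:**
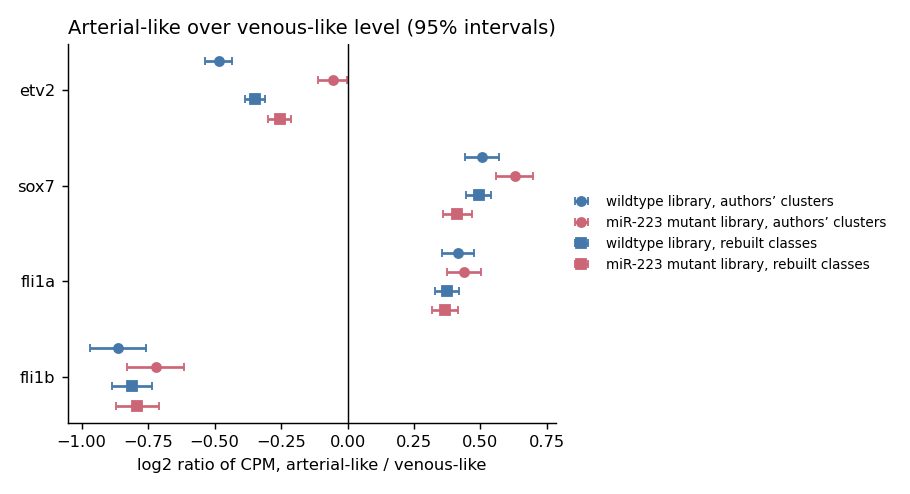
Log2 ratio of CPM between arterial-like and venous-like cells for etv2, sox7, fli1a and fli1b, from the authors' clusters (circles) and the rebuilt classes (squares), with wildtype in blue and mutant in red. Bars are exact conditional 95% intervals. sox7 and fli1a lie to the right of 0 in all 4 ratios, and fli1b lies to the left at ratios of 0.550 to 0.607.

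Within the rebuilt arterial-like class etv2 varied most. A cluster led by nanos1, vegfc and cldn5a (586 wildtype and 497 mutant cells) had 324 and 378 CPM of etv2. One with esm1 and flt1 among its leading genes (610 and 397 cells) had 726 and 722 CPM. One led by kalrnb, aqp8a.1 and hey2 (343 and 336 cells), which also has esm1 among its leading genes, had 993 and 740 CPM. sox7 kept the same order, at 331 and 345, then 503 and 474, then 613 and 517 CPM. fli1a moved less, from 477 and 481 CPM in the first to 549 and 605 CPM in the second and 538 and 554 CPM in the third. The wildtype level of etv2 thus spanned about 3 times in cells of 1 class, more than its difference between arterial-like and venous-like cells.

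Outside the endothelium, single members stayed high in particular blood classes. Progenitor-like cells, which were named from myb, gata2b, runx1 and similar genes, held 209 CPM of fli1a in wildtype (192 to 228) and 225 CPM in the mutant library (202 to 251). In the same cells etv2 had 50.3 and 32.5 CPM and sox7 had 29.8 and 11.8 CPM. The number of fli1a UMIs per etv2 UMI was 4.16 (3.42 to 5.10) and 6.94 (5.10 to 9.63) there, compared with 0.571 and 0.671 in endothelial-like cells. It was 0.734 (0.493 to 1.09) and 0.655 (0.461 to 0.925) in muscle-like cells, 1.08 (0.750 to 1.57) and 1.98 (1.33 to 2.97) in mesenchymal-like cells, and 1.47 (1.3 to 1.67) and 2.27 (2.07 to 2.49) in erythroid-like cells. The ratio thus exceeded the endothelial one in erythroid-like and mesenchymal-like cells too and, as given below, in myeloid-like cells. In each of these it did so by less than in progenitor-like cells, and the part of free RNA in these counts was not tested. sox7 per etv2 in progenitor-like cells, at 0.592 (0.438 to 0.795) in wildtype and 0.362 (0.195 to 0.642) in mutant cells, had intervals that included the endothelial values of 0.488 and 0.528. The authors' cluster 8, progenitor-like by the same markers, held 262 and 258 CPM of fli1a, and 37.8 and 43.5 CPM of etv2, but 101 and 98.3 CPM of sox7, more than the rebuilt class. sox7 per etv2 in that cluster was 2.67 (1.92 to 3.76) and 2.26 (1.65 to 3.13), above the endothelial values, so the sox7 result in progenitor-like cells depended on the clusters used.

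In the rebuilt myeloid-like cells fli1b was high relative to etv2. It had 67.2 CPM (59.3 to 75.8) in wildtype and 77.4 CPM (71.0 to 84.2) in mutant myeloid-like cells, while etv2 had 23.9 and 14.7 CPM. The count of fli1b per etv2 UMI was 2.81 (2.21 to 3.59) and 5.27 (4.26 to 6.58), compared with 0.286 and 0.347 in endothelial-like cells. In progenitor-like cells it was 0.992 (0.77 to 1.28) and 1.55 (1.06 to 2.29), also above the endothelial values, with 49.9 and 50.5 CPM of fli1b. In myeloid-like cells fli1a per etv2 was 1.72 (1.33 to 2.25) and 2.61 (2.07 to 3.31), also above the endothelial ratio. In the authors' lyz-expressing cluster 11 (18 wildtype and 157 mutant cells) fli1b had 102 CPM from 17 UMIs and 66.7 CPM from 94 UMIs. fli1a was at 41.2 and 38.3 CPM in the rebuilt myeloid-like class, and at 16.1 and 21 CPM in erythroid-like cells.

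Free RNA also gives UMIs in cells that do not express a gene. Shares of cells with a UMI were therefore set beside erythroid-, muscle- and neural-like cells, after every cell was thinned to 2000 UMIs. etv2 was seen in 64.8% of wildtype endothelial-like cells (63.4 to 66.2%) and 65.0% of mutant ones (63.5 to 66.4%), and in 1.86% and 1.67% of erythroid-like cells. fli1a was seen in 55.4% and 58.0% of endothelial-like and 3.57% and 4.44% of erythroid-like cells. sox7 was seen in 42.8% and 44.2%, with 0.93% and 1.06% in erythroid-like cells, and fli1b in 32.3% and 35.4%, with 0.698% and 0.797%. In muscle-like cells etv2 was seen in 4.50% and 8.09%, fli1a in 6.31% and 3.68%, sox7 in 3.60% and 2.21%, fli1b in 1.80% and 2.21%. The neural-like shares, in the same order, were 4.26% and 7.44%, 8.51% and 4.13%, 4.26% and 4.13%, and 1.06% and 3.31%. In mesenchymal-like cells fli1a was seen in 8.96% and 12.4%. Before thinning, endothelial-like shares were 82.1% and 85.5% for etv2, 84.1% and 86.9% for fli1a, 67.8% and 73.2% for sox7, and 63.8% and 69.2% for fli1b. The deeper erythroid-like cells then had shares of 24.0% and 21.7% for etv2, 33.8% and 40.1% for fli1a, 14.5% and 10.9% for sox7, and 9.81% and 9.66% for fli1b. The median depth was 6867 and 7044 UMIs in endothelial-like cells and 30923 and 27709 in erythroid-like cells. With depths this different, neither erythroid-like share, thinned or not, measures the free RNA in endothelial-like cells. The part of free RNA in the endothelial-like shares was not tested. Thinning left out 524 wildtype and 337 mutant endothelial-like cells.

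By this measure 39.9% of wildtype (33.0 to 47.1%) and 35.0% of mutant (27.1 to 43.6%) progenitor-like cells had a fli1a UMI, while 1.52% and 1.46% had one of sox7. In myeloid-like cells fli1b was seen in 11.5% (7.32 to 16.8%) and 12.7% (9.52 to 16.4%). The thinned shares of sox18 (0.358% and 0.409%), erg (0.126% and 0.337%) and ets1 (0.547% and 0.867%) were below 1% of endothelial-like cells in both libraries.

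**Figure D3:**
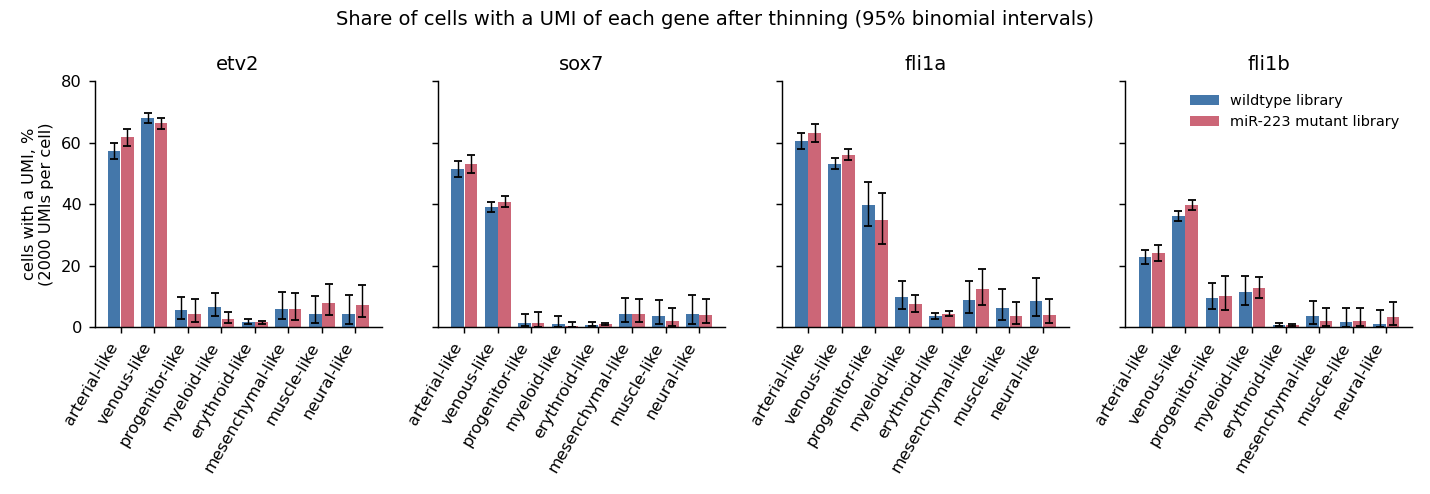
Share of cells with at least 1 UMI of etv2, sox7, fli1a and fli1b after thinning to 2000 UMIs per cell, in percent, for 8 rebuilt classes, with wildtype in blue and mutant in red. Bars are shares and lines are exact Clopper-Pearson 95% intervals. etv2 reaches 57.2 to 68.0% in arterial-like and venous-like cells, and the only non-endothelial shares above 30% are those of fli1a in progenitor-like cells (39.9 and 35.0%).

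Most endothelial-like cells showed several of these factors at once. Among cells thinned to 2000 UMIs, 8.39% of wildtype and 6.24% of mutant endothelial-like cells had none of the 4, 34.9% and 36.2% had 2 of them, and 6.41% and 6.91% had all 4. In erythroid-like cells 93.4% and 92.5% had none, in muscle-like cells 89.2% and 90.4%, and in neural-like cells 87.2% and 86.8%. Pairs were found together about as often as the product of their single shares. Over the 6 pairs in endothelial-like cells, the observed share divided by that product ran from 0.992 for fli1a with fli1b in the wildtype library to 1.13 for sox7 with etv2 in the same library. In the mutant library the corresponding values were 0.997 and 1.06. These are descriptions of cells within 1 library each.

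The spread over single cells set etv2 and sox7 apart from the fli1 paralogs. In endothelial-like cells thinned to 5000 UMIs, etv2 had a median of 3 UMIs in each library and reached 33 UMIs in a wildtype and 20 in a mutant cell. Its variance divided by its mean was 3.30 in wildtype and 2.52 in mutant cells. The same quotient was 2.33 and 2.06 for sox7, 1.25 and 1.19 for fli1a, and 1.21 and 1.2 for fli1b, where a value of 1 would be that of Poisson sampling alone. Mean UMIs were 4.08 and 3.57 for etv2, 1.99 and 1.85 for sox7, 2.21 and 2.30 for fli1a, 1.16 and 1.23 for fli1b. The quotient depends on the mean, so it does not rank genes or libraries by relative spread. Cells with at least 10 etv2 UMIs made up 7.81% of wildtype cells (281 of 3596, 6.96 to 8.74%) and 4.57% of mutant cells (148 of 3241, 3.87 to 5.34%). The wildtype share was also the higher one in both vessel classes, with 9.16% and 5.41% of venous-like cells and 4.51% and 2.22% of arterial-like cells. In the rebuilt venous-like clusters led by gchfr and rnaset2 and by nupr1b and sele, each mostly of 1 library, the mutant share was higher. It was 37.5% (3 of 8) against 9.63% of wildtype cells in the first, and 5.03% against 2.63% (1 of 38) in the second. In every other rebuilt endothelial-like cluster the wildtype share was the higher one, but the intervals of the 2 libraries overlapped in each. Some of these shares rest on few cells. The cluster led by ap1s3b held 1 mutant cell, and the one led by nanos1, vegfc and cldn5a had 3 of 370 wildtype and 2 of 317 mutant cells. The limit of 10 UMIs was chosen after the values had been seen.

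The comparison of genotypes asked whether these factors were present at other levels in the miR-223 mutant endothelium. Summed over all endothelial-like cells, no plentiful member differed by as much as 1.5-fold. Across the 7217 genes that reached a mean level of 5 CPM, 3.99% were at least 1.5-fold higher and 3.27% at least 1.5-fold lower in the mutant library. etv2 had 772 CPM in wildtype (763 to 781) and 685 CPM in mutant cells (676 to 694), a ratio of 0.888 (0.872 to 0.903). In the endothelial-like clusters of the authors' table it was 0.919 (0.901 to 0.936). sox7 had 377 and 361 CPM, a ratio of 0.960 (0.937 to 0.983). In the endothelial-like clusters of the authors' table its ratio was 1.01 (0.980 to 1.04), an interval that included 1, so its lower level depended on the cells taken. fli1a had 440 and 460 CPM, a ratio of 1.04 (1.02 to 1.07), and fli1b had 221 and 238 CPM, a ratio of 1.08 (1.04 to 1.11). fli1b was 1.17-fold (1.13 to 1.21) higher in the authors' clusters, so which of etv2 and fli1b differed most depended on the cells taken.

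Among the scarce genes, ets1 was counted 94 times in wildtype and 141 times in mutant endothelial-like cells, a ratio of 1.78 (1.36 to 2.33). Higher ets1 was seen in venous-like cells (64 and 104 UMIs, ratio 1.86, 1.35 to 2.59), and the arterial-like ratio of 1.58 (0.947 to 2.64) had an interval that included 1. In the authors' endothelial-like clusters ets1 had 2.67 and 3.88 CPM. Clusters 0, 2, 3, 5 and 6 each had an interval that included 1, and cluster 1 went the other way with 11 and 0 UMIs. erg had 38 and 50 UMIs, a ratio of 1.56 whose interval began at 1.0, and the interval included 1 with a marker gate in place of clusters (1.52, 0.888 to 2.63) and under several other alternatives. sox18 had 70 and 61 UMIs, a ratio of 1.03 (0.721 to 1.48). Over the 7 genes, 4 intervals lay above 1 and 2 below. Of the 4 genes at 5 CPM, 2 lay above and 2 below, and by the same rule 34.9% of the 7217 genes lay above and 23.5% below. With scaling by the median of gene ratios, the interval of fli1a (1.01, 0.991 to 1.04) included 1.

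Inside single clusters the differences were larger and pointed both ways. In cluster 6 (180 wildtype and 467 mutant cells) etv2 had 1156 CPM in wildtype and 859 CPM in mutant cells, a ratio of 0.743 (0.699 to 0.790), and sox7 had 688 and 464 CPM, a ratio of 0.675 (0.623 to 0.732). Of the 7344 genes tested in that cluster, 13.4% were lower and 8.5% higher beyond counting error. fli1a was level there at 1.0 (0.916 to 1.09), and fli1b had a ratio of 1.1 (0.968 to 1.26). In cluster 5 (261 and 422 cells) sox7 was higher in the mutant library at 1.39 (1.19 to 1.62), as were fli1b at 1.29 (1.06 to 1.57) and fli1a at 1.15 (1.02 to 1.3), where 14.3% of 6135 genes were higher and 8.96% lower. etv2 had a ratio of 0.943 (0.863 to 1.03) in that cluster. In arterial-like cluster 3 (913 and 782 cells) fli1b had a ratio of 1.14 (1.04 to 1.25), with 16.8% of 7175 genes higher, and the intervals of sox7, fli1a and etv2 included 1. In cluster 1 (1444 and 580 cells) fli1a and fli1b were higher, at 1.14 (1.06 to 1.22) and 1.26 (1.1 to 1.44), with 21.1% of 5466 genes higher.

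The venous-like clusters 0 and 2 were split by library, and the ratios of sox7 and etv2 had another sign within each than over both. Cluster 0 held 283 wildtype and 1846 mutant cells, and cluster 2 held 1925 wildtype and 31 mutant cells. In cluster 0 sox7 was 1.36-fold (1.24 to 1.51) and etv2 1.07-fold (1.01 to 1.14) higher in the mutant library, with 20.4% of 7247 genes higher. In cluster 2 they were 2.01-fold (1.69 to 2.36) and 1.39-fold (1.22 to 1.56) higher. Summed over both clusters, a grouping chosen after the data had been seen, sox7 had 351 and 310 CPM, a ratio of 0.885 (0.850 to 0.921). etv2 had 924 and 719 CPM, a ratio of 0.779 (0.759 to 0.799). Both genes were thus higher in the mutant library within each cluster and lower over the 2 clusters together. Most wildtype cells lay in cluster 2, where levels were higher, and most mutant cells in cluster 0. The cause of the change in sign was not tested. fli1a was 1.2-fold (1.11 to 1.3) higher in cluster 0, at 0.945 (0.749 to 1.18) in cluster 2, and level at 1.0 (0.965 to 1.04) over both. fli1b was 1.26-fold (1.15 to 1.40) higher in cluster 0, at 0.699 (0.496 to 0.958) in the 31 mutant cells of cluster 2, and at 1.06 (1.02 to 1.11) over both.

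**Figure D4:**
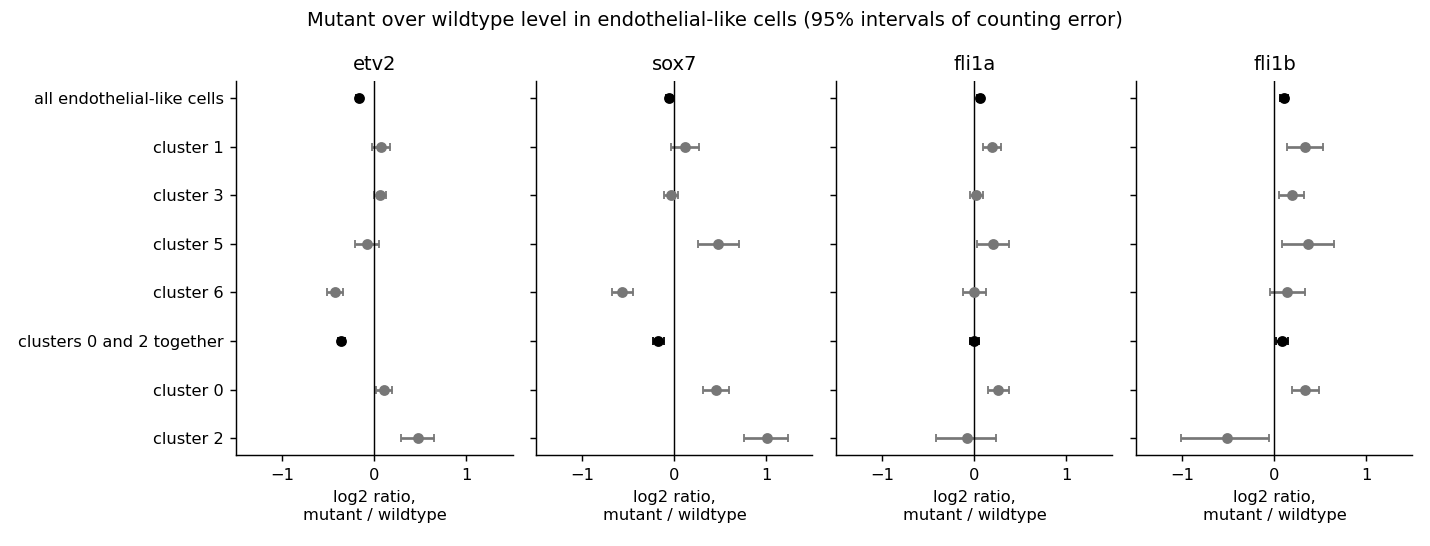
Log2 ratio of mutant to wildtype level for etv2, sox7, fli1a and fli1b in all rebuilt endothelial-like cells, in 6 of the authors' clusters and in clusters 0 and 2 together. Points are ratios of CPM and bars are exact conditional 95% intervals of counting error. For sox7 and etv2 clusters 0 and 2 lie right of 0 each, while their sum lies left of it at ratios of 0.885 and 0.779, and cluster 6 lies left at 0.675 and 0.743.

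Without the authors' clusters, etv2 and sox7 were also compared in other groupings of the same cells, which are no second sample. Among endothelial-like cells with at least 3 UMIs of aqp8a.1 (2077 wildtype and 2350 mutant cells, a gate chosen after the data had been seen), sox7 had a ratio of 0.899 (0.872 to 0.927) and etv2 of 0.916 (0.895 to 0.937). The gate took in far more cells than the 180 wildtype and 467 mutant cells of cluster 6. Over all endothelial-like cells the ratios were 0.960 for sox7 and 0.888 for etv2, so the etv2 ratio was not lower inside the gate. In the rebuilt arterial-like cluster led by kalrnb, aqp8a.1 and hey2, which held similar cell numbers of each library, etv2 had a ratio of 0.745 (0.702 to 0.791) and sox7 of 0.843 (0.784 to 0.907). A rebuilt venous-like cluster led by apoc1 (103 wildtype and 1016 mutant cells) had ratios of 0.826 (0.770 to 0.887) for etv2 and 0.686 (0.625 to 0.754) for sox7. Its venous name was marginal, with venous markers a mean log2 of only 0.0081 above all endothelial-like cells. The clusters led by apoc1 at resolutions 0.5 and 2 were named neither arterial-like nor venous-like. The cluster with top2a and ube2c, genes of dividing cells, among its leading genes (249 and 191 cells), had etv2 at 0.818 (0.762 to 0.878) and sox7 at 1.05 (0.945 to 1.17). The arterial-like cluster led by nanos1, vegfc and cldn5a had etv2 at 1.17 (1.08 to 1.26), the opposite direction. The cluster with both esm1 and flt1 among its leading genes had 0.995 (0.947 to 1.05). The rebuilt venous-like cells were split by library as well. etv2 had ratios of 1.23 (0.977 to 1.53) in a cluster of 1937 wildtype and 14 mutant cells, 1.18 (1.04 to 1.35) in one of 61 and 1686 cells, and 1.09 (0.977 to 1.21) in one of 1007 and 353 cells. Erythroid markers, mainly globins, summed to 5380 CPM in endothelial-like cells of the wildtype library and 4837 CPM in those of the mutant library, all 11 features being detected in both, and their part in these ratios was not tested.

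Over all kept cells of every class the ratios were 0.575 for etv2, 0.615 for sox7, 0.705 for fli1a and 0.719 for fli1b, all below 1. The share of endothelial-like cells was lower in the mutant library (54.5% against 70.6%), while within endothelial-like cells the ratios were 0.888, 0.960, 1.04 and 1.08.

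In shares of all thinned endothelial-like cells together the libraries differed by little. The mutant-minus-wildtype difference was 3.09 points (1.12 to 5.06) for fli1b and 2.67 points (0.604 to 4.73) for fli1a. For sox7 it was 1.42 points (-0.640 to 3.49) and for etv2 0.18 points (-1.81 to 2.16). The intervals of sox7 and etv2 included 0, while for etv2 the summed level was lower in the mutant library and cells with 10 or more UMIs were fewer. At 5000 UMIs per cell the intervals of all 4 genes included 0 over all endothelial-like cells. The vessel classes differed for etv2. At 2000 UMIs its difference was 4.48 points (0.643 to 8.28) in arterial-like and -1.73 points (-4.05 to 0.576) in venous-like cells. At 5000 UMIs it was 2.58 points (-0.961 to 6.05) and -1.96 points (-3.66 to -0.265).

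The relatives of these genes gave a frame for the above. Of 23 further ETS symbols, 21 were matched, and 13 of them reached 5 CPM in endothelial-like cells. Their median log2 ratio of mutant to wildtype was -0.04, compared with 0.04 over all 7217 genes. Beyond counting error 3 lay higher and 5 lower, beside 34.9% higher and 23.5% lower over all genes. With 1 CPM added to each level, 0 were at least 1.5-fold higher and 1 at least 1.5-fold lower, beside 3.99% and 3.27% of all genes. fev was the most endothelial of those with at least 20 CPM, at 17.2-fold and 17.4-fold over other cells with 1 CPM added to each level, and had 29.6 and 28.2 CPM. erfl3, which belongs to the ERF group of ETS factors, was 7.37-fold and 8.62-fold higher in endothelial-like cells and had a mutant-to-wildtype ratio of 1.18 (1.09 to 1.27). elf2a was 2.46-fold and 2.55-fold higher in endothelial-like cells and had a ratio of 0.969 (0.887 to 1.06). Among features with at least 20 CPM the lowest ratios were those of ets2, the closest relative of ets1 (64.8 and 46.9 CPM, 0.724, 0.679 to 0.771), gabpa (137 and 121 CPM, 0.882, 0.847 to 0.919) and elf2b (38.1 and 33.9 CPM, 0.889, 0.822 to 0.962). Below that level, and named after their values had been seen, etv4 had a ratio of 0.794 (0.694 to 0.908) and spi2, a relative of the blood factor gene spi1b, was the gene past 1.5-fold, at 22.3 and 11.9 CPM (0.536, 0.475 to 0.605). In the other direction, and likewise named after their values had been seen, etv5b had a ratio of 1.43 (1.28 to 1.61) and erf of 1.22 (1.1 to 1.37).

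Of 21 SOX symbols, which matched 22 features, only 4 features reached 5 CPM. Their median log2 ratio was -0.13, and 0 lay higher and 2 lower, beside the same 34.9% and 23.5% of all genes. With 1 CPM added to each level, 1 was at least 1.5-fold lower, beside 3.27% of all genes. It was sox11a, named after its values had been seen, at 15.3 and 9.6 CPM (0.628, 0.546 to 0.720). sox4a was the one with at least 20 CPM, at 176 and 154 CPM, a ratio of 0.875 (0.843 to 0.907), and it was 16.7-fold and 19.5-fold higher in endothelial-like than in other cells. Another SoxF gene, sox17, had 34 and 38 UMIs in endothelial-like cells. Its level there was 0.871 and 1.15 CPM, against 1.26 and 1.89 CPM in other cells. Of sox7, sox17 and sox18, sox7 alone reached 5 CPM.

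Further endothelial regulators lay on both sides of 1. Of 20 features at 5 CPM, 9 lay higher and 7 lower in the mutant library (34.9% and 23.5% of all genes), with a median log2 ratio of 0.01. With 1 CPM added to each level, 1 was at least 1.5-fold higher and 0 at least 1.5-fold lower, beside 3.99% and 3.27% of all genes. The higher one was hhex, at a ratio of 1.55 and under 20 CPM, named after its values had been seen. foxo1a (1.44, 1.34 to 1.56), mafba (1.32, 1.28 to 1.36) and lmo2, a partner of Tal1 and Gata factors (1.22, 1.2 to 1.24), had the highest ratios among those with at least 20 CPM. mef2aa (0.760, 0.709 to 0.816), the Notch target hey2 (0.824, 0.783 to 0.867) and the flow-responsive klf2b (0.847, 0.773 to 0.927) had the lowest. The last list holds endothelial genes called targets here, and whether the members regulate them was not tested. It includes all 10 endothelial markers that named the cells, and arterial and venous markers such as dll4 and flt4. Of its 29 features at 5 CPM, 8 lay higher and 15 lower (34.9% and 23.5% of all genes), with a median of -0.08. With 1 CPM added to each level, 1 was at least 1.5-fold higher and 3 at least 1.5-fold lower (3.99% and 3.27% of all genes). The lower ones were the claudin gene cldn5a (0.356, 0.325 to 0.390), ecscr (0.416, 0.402 to 0.431) and the Notch ligand gene dll4 (0.665, 0.641 to 0.689). The adhesion gene sele was the higher one (2.08, 2.0 to 2.16), followed among those with at least 20 CPM by the apelin receptor gene aplnra (1.49, 1.43 to 1.54) and she (1.15, 1.09 to 1.22). thsd1, at 4.30 and 6.47 CPM and named after its values had been seen, had a ratio of 1.5 (1.22 to 1.85) before that addition. Both sele and aplnra are also among the leading genes of cluster 0, which held mostly mutant cells. Likewise, ecscr is among those of cluster 2, which held mostly wildtype cells.

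The pattern of each member over the 15 clusters was set beside those of 9472 other genes by Pearson's r of log2(CPM + 1), taking the lower of the values in the 2 libraries. Nearest to etv2 were myct1a (0.979), egfl7 (0.969) and gpr182 (0.961), and nearest to sox7 were plk2b (0.965), egfl7 (0.957) and myct1a (0.956). fli1a was nearest to cldn5b (0.965), clec14a (0.945) and rasip1 (0.943). fli1b was nearest to tek, the gene of the Tie2 receptor (0.910), exoc6 (0.905) and iqgap2 (0.901). With Spearman's rho in place of r, sox7 kept 0 of these nearest genes, and etv2, fli1a and fli1b kept 1 each. Between the members themselves, r was 0.931 and 0.957 for sox7 with etv2 and 0.805 and 0.797 for fli1a with fli1b in the wildtype and mutant libraries. The scarce members had lower best values, each resting on a few UMIs per cluster. Nearest to ets1 were pald1b (0.804), fhod1 (0.747) and sap130b (0.735). Nearest to erg were gba (0.746), zgc:153184 (0.730) and lta (0.716), and nearest to sox18 were LO017938.1 (0.710), kdsr (0.688) and per3 (0.677). The 15 points of each r share libraries, depth and the contrast of endothelial with other clusters, and no p-value is given.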

How the data were processed

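The authors deposited raw UMI counts per gene and cell for each library, not normalized, whose file headers name software version 3.0.2. Per the submitters' processing notes, bcl2fastq, Cell Ranger, Seurat and build GRCz11 were used. The authors also deposited a table of coverage, the mean UMIs per cell of 15 clusters in each library, and the number of cells of each column was taken where all values became whole sums (within 1e-06). Its KO columns were read as the mutant library. From the matrices, cells entered with 500 or more detected genes and a mitochondrial share of no more than 10%. Scrublet (scanpy 1.11.5, expected share 6%) marked 39 wildtype (0.519%) and 224 mutant (2.65%) cells as doublets, which were removed. Cells of both libraries were clustered together (1986 variable genes without the members and the ETS and SOX lists, 30 components, 20 neighbours, leidenalg 0.10.2, resolution 1) and named from marker lists. The names were rebuilt and need not match the study's. Arterial-like and venous-like names were given within the endothelium by marker levels relative to all its cells. Gene symbols are those of the files. Folds were counted for genes that reached 5 CPM on average, with 1 CPM added for list medians and for calls past a fold, while printed ratios and intervals carry none unless stated. With 1 library per group there are no tests. Interval functions were tested on simulated data. Genes other than the members were named by rule: the 3 nearest in pattern per member, and per list the 3 highest and 3 lowest ratios, and for the ETS and SOX lists the 5 most endothelial, among features with at least 20 CPM. The members and lists were chosen with earlier results of these data known. Alternatives were other groupings of cells, resolutions, scalings, pseudocounts, minimum levels and depths.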

Additional observations from a re-analysis of the deposited data

Results flagged for a closer look

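For sox7 and etv2 the mutant-to-wildtype difference pointed in opposite directions in different endothelial-like clusters of the authors' table, beyond counting error in each. The log2 ratio of sox7 was 0.473 in cluster 5 and -0.567 in cluster 6. The log2 ratio of etv2 was 0.102 in cluster 0 and -0.428 in cluster 6. With 1 library per group these differences between clusters were not tested.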

How the results depend on the processing

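No paired analysis was possible because each group is 1 library and no replicate could be left out. Over all kept cells of every class, fli1a (0.705) and fli1b (0.719) turned below 1, 0 members lay higher and 4 lower, and the median log2 ratios were -0.27 (ETS family), -0.58 (SOX family), -0.36 (regulators) and -0.67 (targets), beside -0.10 over all genes. In the authors' endothelial-like clusters sox7 moved to 1.01, with an interval that included 1. There 1 member lay lower, and the medians were 0.00499 (ETS), 0.0425 (regulators) and -0.0362 (targets). Scaling by the median of ratios left 2 members higher, with medians of -0.0355 (regulators) and -0.13 (targets). The median of the targets was -0.10 with a marker gate in place of clusters and with each library clustered alone, and -0.11 with a gate on every barcode, with at most 1% globin and at a minimum of 20 CPM. The ETS median was -0.10 with the gate on every barcode and -0.12 at 20 CPM, and the SOX median turned to 0.0281 with no minimum beyond 1 UMI. Of the 21 nearest genes, 13 were shared with a pseudocount of 10 CPM and 10 with Spearman's rho. Of those shared with rho, sox18 gave 2, erg 2 and ets1 3, and sox7 gave 0. With clusters 0 and 2 together (chosen after the data were seen, as were the aqp8a.1 gate and the removal of shared barcodes), sox7 turned to 0.885 and etv2 to 0.779 against each cluster, and sox18 to 0.909 and fli1b to 1.06 against cluster 2. The interval of sox18 (0.518 to 1.58) included 1. The cause of these moves was not tested. Protein sequences were not compared. Depth limits sox18, erg and ets1, whose counts per cluster were often under 10 UMIs.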
